A study of Homo sapiens with 10 samples.

Results

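The enzymes of glycolysis were followed by 10 genes, HK1, HK2, GPI, PFKP, ALDOA, GAPDH, PGK1, ENO1, PKM2 and LDHA, taken by symbol from the tables of RNA-Seq and Ribo-Seq values. All 10 were present once in each table, among 11258 transcripts common to both, and all 10 were among the 7015 genes tested, which reached at least 5 FPKM (reads per transcript, scaled to its length and to the total reads of the library) in at least 1 library of each assay. BJ cells, human skin fibroblasts immortalised by expression of telomerase (hTERT), were either left as an untreated control or treated with nutlin-3a for 2, 4, 6 or 19 h. Nutlin-3a is a small molecule that keeps MDM2 from binding p53 and so raises p53 activity. RNA-Seq was done on poly(A) RNA, and Ribo-Seq sequenced the mRNA fragments that ribosomes protect. Each of the 5 groups had 1 library of each assay, 10 libraries in all, which leaves every difference below without replicates and without a p-value.

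Glycolysis splits glucose into pyruvate in the cytosol. Its early steps spend ATP to trap and phosphorylate the sugar, and its late steps return ATP and NADH. Lactate dehydrogenase then turns pyruvate into lactate and regenerates NAD+. Cultured fibroblasts carry out much glycolysis, and several of its enzymes are among the most abundant mRNAs of most cells, which is why GAPDH is a customary reference gene. p53 is known to act on the pathway in several ways, among them through its target TIGAR (C12orf5 in these tables), which lowers the activator of phosphofructokinase.

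Total reads per library were estimated from the spacing of the FPKM values. These estimates ran from 23845559 to 27554288 for RNA-Seq and from 7744900 to 14460726 for Ribo-Seq, lowest in the 19 h Ribo-Seq library. They are not the study's own read counts. For the control, 6 h and 19 h they lie below the uniquely mapped reads it lists, with or without ribosomal RNA reads. All 8 fibroblast markers reached 5 FPKM in RNA-Seq, with a summed level of 9190 to 12347 FPKM. Of the epithelial markers 2 reached 5 FPKM (KRT8 and KRT18, sum of all 243.4 to 327.1 FPKM), of the blood markers only CD68 did (sum 61.69 to 87.07 FPKM), and the 1 endothelial marker in the table stayed below 1 FPKM. As a check of the treatment, the p53 targets CDKN1A and MDM2 went in RNA-Seq from 68.6 and 14.9 FPKM in the control to 1316 and 259 FPKM at 19 h. In such bulk samples a change in the make-up of the culture and a change in the RNA of each cell cannot be told apart.

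The level of each enzyme depends on the transcript chosen for its gene, since FPKM is divided by the whole transcript length, which could be recovered from the spacing of the values. These lengths ran from 1783 nt (ENO1) and 1875 nt (GAPDH) to 4887 nt (PGK1) and 5772 nt (HK2). The same length served both assays, so a transcript with long untranslated regions reads low in Ribo-Seq per base of coding sequence. Only uniquely aligned reads were kept, and GAPDH, PGK1, ENO1, LDHA and PKM2 have many processed pseudogenes, whose reads could have been added to or withheld from these genes. The row PKM2 stands for the whole PKM gene, and its M1 and M2 splice forms cannot be separated in these values.

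**Figure D1:**
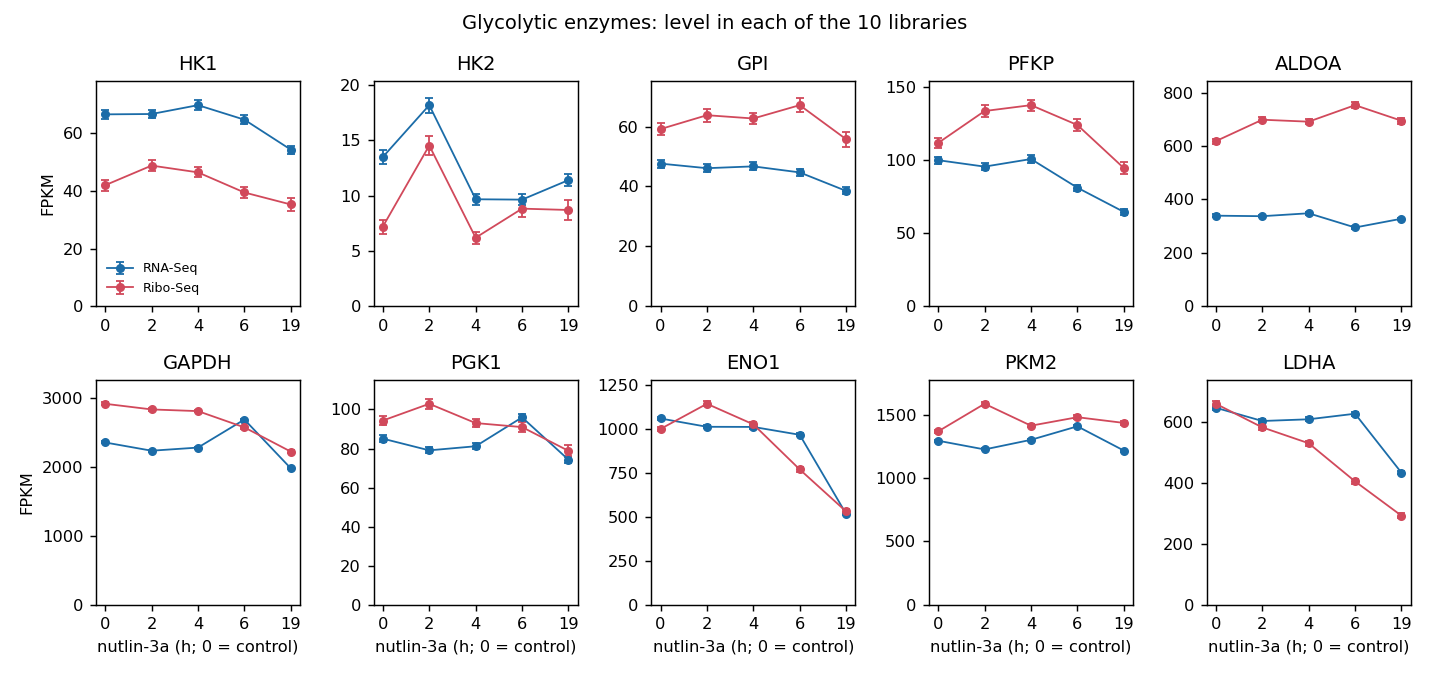
FPKM (vertical axis, starting at 0) of the 10 glycolytic enzymes in the control (0 h) and at 2, 4, 6 and 19 h of nutlin-3a, with RNA-Seq in blue and Ribo-Seq in red. Each point is 1 library and the bars are 95% counting intervals; LDHA in Ribo-Seq is lower at every later time, ENO1 is lowest at 19 h in both assays, and HK2 is highest at 2 h in both.

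The order of the enzymes by level was nearly fixed. In RNA-Seq GAPDH, PKM2, ENO1, LDHA and ALDOA were ranks 1 to 5 among the members in every library, and GPI and HK2 were ranks 9 and 10. All 45 pairs of neighbours in that order, 9 in each library, differed beyond counting error. In Ribo-Seq 44 of 45 did, the exception being ENO1 and ALDOA at 6 h (768 and 754 FPKM). ALDOA moved up this order from rank 5 in the control to rank 3 at 19 h, above ENO1 and LDHA. Together the 10 enzymes held 1.63% of the summed FPKM of all listed transcripts in the control RNA-Seq library, 1.58% to 1.67% at 2 to 6 h and 1.33% at 19 h. In Ribo-Seq they held 1.3%, 1.47%, 1.24%, 1.37% and 1.27% in the control and at 2, 4, 6 and 19 h. This share showed no such step at 19 h, but it depends on the sum of all transcripts. The summed FPKM of the 10 enzymes was lower at 19 h than in the control in both assays. It was 6008 and 4719 FPKM in RNA-Seq, and 6879 and 5450 FPKM in Ribo-Seq, in the control and at 19 h.

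Changes are log2 ratios of a treated library to the untreated one, taken within an assay after values under 1 FPKM were set to 1. Ribosome density is the Ribo-Seq FPKM, and translation efficiency (TE) is the log2 ratio of Ribo-Seq to RNA-Seq FPKM. A change was called where it lay farther than a set multiple of the local standard deviation (SD) from the local median of the tested genes nearest in level (the multiple and the number of genes are given with the processing), the kind of sliding cut-off that the study used. SE below is the counting error from the recovered read numbers. It covers counting only, since copies made by PCR cannot be told from separate molecules, and it says nothing of the spread between cultures.

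Few of the enzymes were called. In RNA 1 of 10 was called at 2 h (HK2, higher), none at 4 h, none at 6 h and 1 at 19 h (ENO1, lower). Among all tested genes 4.45%, 6.26%, 6.46% and 6.4% were called at these times. In ribosome density 1 of 10 was called at 2 h (HK2, higher) and none later, against 6.17%, 6.29%, 7.2% and 6.2% of all tested genes. In TE none was called at any time, against 6.91%, 7.64%, 6.91% and 7.53% of all tested genes. These counts are close to what the share among all genes gives for 10 genes. The local SD sets how large a change must be, and for the 5 most abundant enzymes it was 0.38 at 2 h and 0.95 at 19 h in ribosome density, beside 0.40 and 0.80 for HK1 and 0.38 and 1.08 for HK2. In the window of the most abundant genes at 19 h, 73 encode ribosomal proteins. With those genes left out of the windows, the same 3 calls were made and no other. At a fixed cut-off of 1.5-fold, 2 members passed in RNA at 19 h (ENO1 and PFKP, both lower), where 21.7% of all tested genes passed. In density 1 passed at 2 h (HK2, higher), beside 9.68% of all tested genes. At 6 h 1 passed in density (LDHA, lower) and at 19 h 2 (LDHA and ENO1, both lower), beside 34% and 44.7% of all tested genes. In TE 2 passed at 6 h (HK2 higher, LDHA lower) and 1 at 19 h (LDHA, lower), beside 25.6% and 24.6%.

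**Figure D2:**
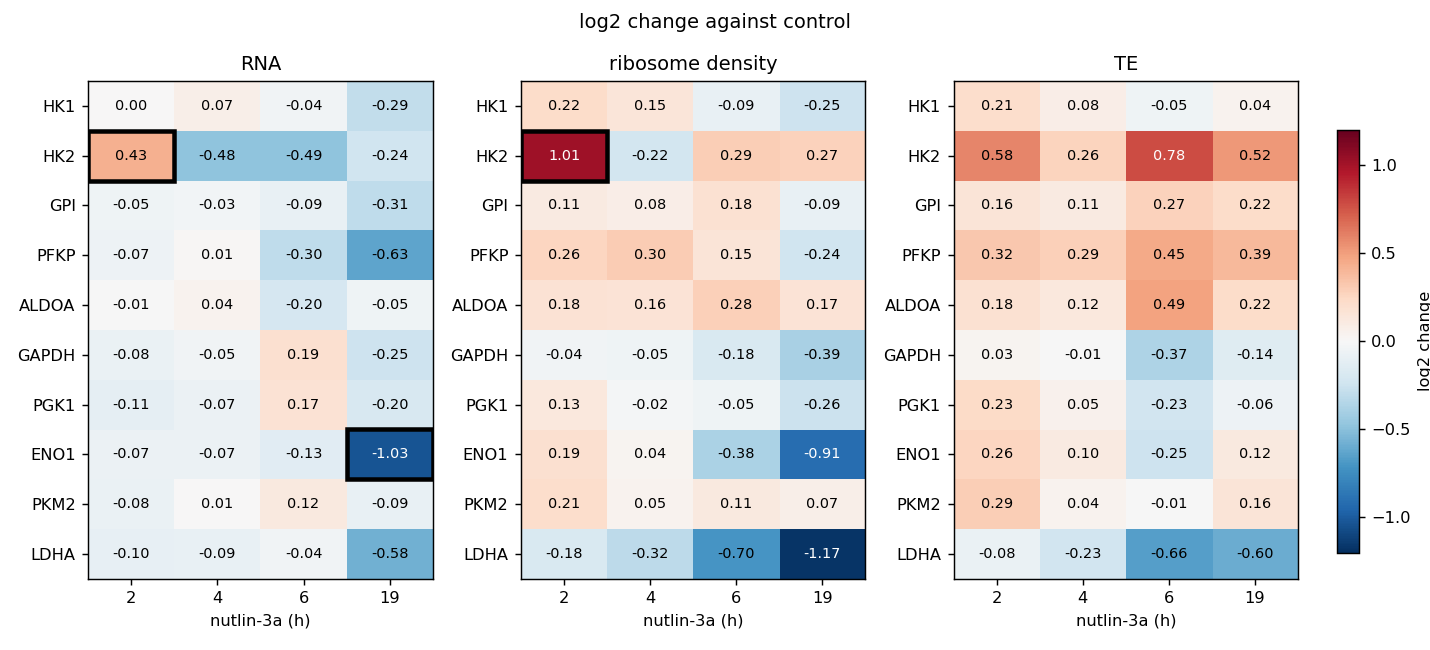
log2 change against control of each enzyme (rows, in pathway order) at 2, 4, 6 and 19 h (columns) in RNA, ribosome density and TE. Red is higher and blue lower than the control; heavy frames mark the 3 called changes, HK2 at 2 h in RNA (0.43) and ribosome density (1.01) and ENO1 at 19 h in RNA (-1.03).

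HK1 and HK2 encode hexokinases, which phosphorylate glucose on entry and so hold it in the cell. HK1 is the widely expressed form. Its RNA was 66.6 FPKM in the control and 66.8, 69.8, 64.8 and 54.4 FPKM at 2, 4, 6 and 19 h. Its ribosome density was 42.0 FPKM in the control and 48.8, 46.5, 39.5 and 35.3 FPKM at those times. Both readouts were lowest at 19 h, with log2 changes of -0.29 (SE 0.026) in RNA and -0.25 (SE 0.054) in density. HK1 stayed within 0.07 of the control in RNA up to 6 h, on the log2 scale.

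HK2 encodes the inducible hexokinase, which is low in most adult tissues and raised by growth factors and hypoxia. It was the least abundant enzyme in all 10 libraries. Its RNA was 13.5 FPKM in the control and 18.2, 9.67, 9.64 and 11.4 FPKM at 2, 4, 6 and 19 h. On ribosomes, HK2 was at 7.20 FPKM in the control and 14.5, 6.19, 8.82 and 8.70 FPKM. The 2 h libraries were the highest of both assays, and the RNA of all later libraries lay below the control. At 2 h HK2 rose in RNA by 0.43 on the log2 scale (SE 0.043), above 96.8% of all tested genes, and in ribosome density by 1.01 (SE 0.080), a fold of 2.02. Of all tested genes 4.06% were called higher in RNA and 4.53% in ribosome density at that time. From 2 h to 4 h HK2 then fell by 0.91 on the log2 scale in RNA (SE 0.048) and by 1.23 in density (SE 0.078), and both steps were called lower, as were 3.68% and 3.72% of all tested genes. These steps and the rises share the 2 h libraries. The control Ribo-Seq value rests on 489 reads and the one at 2 h on 995, which gives counting errors of 4.52% and 3.17%. The rise in RNA was no longer called at a stricter cut-off of 2.5 local SDs or at a fixed cut-off of 1.5-fold, whereas the rise in density was called at both. That fixed cut-off was passed at 2 h by 2.3% of all tested genes in RNA and by 9.68% in density.

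HK2 is also the longest of the transcripts, and ribosome density changes at 2 h grew with length over all tested genes, by 0.15 on the log2 scale per doubling of length. With this trend removed, the density change of HK2 at 2 h was 0.83 and its RNA change 0.35, and both were still called. Its TE was higher than in the control at all 4 times, with log2 changes of 0.58 (SE 0.091), 0.26 (SE 0.10), 0.78 (SE 0.10) and 0.52 (SE 0.11) at 2, 4, 6 and 19 h, none of them called. Relative to the median of all tested genes they were 0.54, 0.08, 0.78 and 0.58. TE changes over all tested genes also grew with length at 2, 6 and 19 h, by 0.10, 0.16 and 0.15 per doubling. With that trend removed HK2 stayed above 0 at all 4 times. The highest member was then at 0.62 at 6 h and 0.39 at 19 h. The ratio of HK1 to HK2 in RNA was accordingly 4.94 in the control and 3.67, 7.22, 6.72 and 4.77 after 2, 4, 6 and 19 h. In Ribo-Seq this ratio was 5.83, 3.36, 7.5, 4.48 and 4.06. HK1 remained the more abundant hexokinase in every library, by the smallest margin at 2 h.

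GPI encodes glucose-6-phosphate isomerase, which turns glucose 6-phosphate into fructose 6-phosphate. Its RNA was 47.6 FPKM in the control and 46.1, 46.7, 44.7 and 38.5 FPKM at 2, 4, 6 and 19 h. Ribosome density of GPI was 59.2 FPKM in the control and 63.8, 62.7, 67.2 and 55.8 FPKM. GPI varied little, the highest library being 1.24 times the lowest in RNA and 1.2 times in Ribo-Seq. Its log2 change at 19 h was -0.31 (SE 0.030) in RNA and -0.09 (SE 0.043) in density.

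PFKP encodes the platelet form of phosphofructokinase, the enzyme of the first committed step. Its RNA was 99.7 FPKM in the control and 95.3, 100.5, 80.9 and 64.4 FPKM at 2, 4, 6 and 19 h. In Ribo-Seq PFKP was at 111 FPKM in the control and 133, 137, 124 and 94.4 FPKM. RNA was lowest at 19 h, with a log2 change of -0.63 (SE 0.028) that was not called, while density was above the control at 2, 4 and 6 h. Its TE changes were therefore positive at all 4 times, 0.32, 0.29, 0.45 and 0.39 (SE 0.041 to 0.050), and not called. The muscle form PFKM, which is no member, was at 19.2 FPKM in the control RNA and 22.2 FPKM at 19 h. The ratio of PFKP to PFKM in RNA was 5.19 in the control and 2.9 at 19 h, with 95% counting intervals of 4.9 to 5.49 and 2.74 to 3.06. In Ribo-Seq it was 5.93 in the control and 4.28 at 19 h.

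ALDOA encodes aldolase A, which splits fructose 1,6-bisphosphate into a pair of triose phosphates. Its RNA was 339 FPKM in the control and 337, 348, 295 and 328 FPKM at 2, 4, 6 and 19 h. Its density in Ribo-Seq was 619 FPKM in the control and 699, 692, 754 and 695 FPKM. All 4 treated Ribo-Seq libraries were above the control, whereas its RNA was lowest at 6 h. Its RNA change at 19 h was the smallest in size of the 10, -0.05 (SE 0.014). ALDOA had the highest TE of the members in each of the 5 pairs of libraries, with a ratio of Ribo-Seq to RNA-Seq FPKM of 1.82 in the control and 2.07, 1.99, 2.56 and 2.12 at 2, 4, 6 and 19 h. This placed it above 90.4% of all tested genes in the control and above 96.1% at 6 h.

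GAPDH encodes glyceraldehyde-3-phosphate dehydrogenase, which makes the NADH of the pathway. It was the most abundant member throughout, at rank 5 to 10 of all tested genes in RNA-Seq and rank 8 to 13 in Ribo-Seq. Its RNA was 2358 FPKM in the control and 2239, 2284, 2692 and 1982 FPKM at 2, 4, 6 and 19 h. Ribo-Seq gave 2920 FPKM for GAPDH in the control and 2838, 2814, 2577 and 2225 FPKM. RNA was highest at 6 h and lowest at 19 h, a span of 1.36 times, while density was lower at each later time. The log2 changes in RNA were -0.08, -0.05, 0.19 and -0.25 (SE 0.0059 to 0.0064), and those in TE 0.03, -0.01, -0.37 and -0.14. None was called. The ratio of the 6 h to the control RNA value of GAPDH was thus 1.14, that of 19 h to control 0.841.

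PGK1 encodes phosphoglycerate kinase 1, which makes the first ATP that the pathway returns. Its RNA was 85.0 FPKM in the control and 79.1, 81.2, 95.9 and 74.3 FPKM at 2, 4, 6 and 19 h. For PGK1 ribosome density was 94.3 FPKM in the control and 103, 93.0, 91.0 and 78.8 FPKM. As for GAPDH, RNA was highest at 6 h (0.17, SE 0.019) and lowest at 19 h (-0.20, SE 0.021). Its density change at 19 h was -0.26 (SE 0.033), and no change was called.

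ENO1 encodes alpha-enolase, which makes phosphoenolpyruvate, and was the third most abundant member in RNA. Its RNA was 1057 FPKM in the control and 1010, 1009, 965 and 516 FPKM at 2, 4, 6 and 19 h. The ribosome density of ENO1 was 998 FPKM in the control and 1141, 1024, 768 and 530 FPKM. The 19 h libraries stood well below the rest in both assays, whereas at 6 h density was already lower and RNA was within 10% of the control. ENO1 RNA fell by 1.03 on the log2 scale at 19 h (SE 0.012), a fold of 0.488, below all but 6.77% of the tested genes. Of all tested genes 4.65% were called lower in RNA at that time. The fall kept its call with median centring (-0.97), with the length trend removed (-0.91) and against the 2 h library (-0.97), and was not called at 2.5 local SDs.

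Most of the fall in ENO1 RNA lay between 6 h and 19 h. That step was -0.90 on the log2 scale (SE 0.011) and was called lower, as were 2.11% of all tested genes in the same step. Ribosome density was -0.38 (SE 0.016) against the control at 6 h and -0.91 (SE 0.020) at 19 h, not called at either time. The TE of ENO1 was therefore -0.25 against the control at 6 h and 0.12 at 19 h, and the step between them, 0.37 (SE 0.024), was called higher, as were 3.56% of all tested genes. With 1 library at each time, this step rests on 4 libraries that had no replicate.

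PKM2 stands for pyruvate kinase of the PKM gene, which makes pyruvate and ATP. Its RNA was 1294 FPKM in the control and 1225, 1301, 1408 and 1217 FPKM at 2, 4, 6 and 19 h. Its Ribo-Seq level was 1368 FPKM in the control and 1586, 1413, 1480 and 1435 FPKM. PKM2 was the steadiest member, its highest library being 1.16 times its lowest in both assays, and all treated Ribo-Seq libraries were above the control. At 4 h the density change of PKM2 was 0.05, where the median of all tested genes was 0.10. At 19 h its log2 changes were -0.09 (SE 0.0071) in RNA and 0.07 (SE 0.011) in density.

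LDHA encodes the A subunit of lactate dehydrogenase, which makes lactate from pyruvate. Its RNA was 646 FPKM in the control and 603, 608, 627 and 433 FPKM at 2, 4, 6 and 19 h. In Ribo-Seq LDHA was at 659 FPKM in the control and 582, 530, 405 and 292 FPKM. Density was lower at each later time, whereas RNA stayed close to the control up to 6 h and was lower at 19 h. The log2 changes in density were -0.18 (SE 0.016), -0.32 (SE 0.015), -0.70 (SE 0.018) and -1.17 (SE 0.023), a fold of 0.443 at 19 h. In RNA the change at 19 h was -0.58 (SE 0.012). None of these was called, and at 19 h 10.9% of all tested genes lay below LDHA in density.

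In TE, LDHA was the lowest of the 10 enzymes by change at every time, with log2 changes of -0.08 (SE 0.019), -0.23 (SE 0.019), -0.66 (SE 0.021) and -0.60 (SE 0.026). At 4 h it lay at -1.68 local SDs from the local median, just inside the cut-off. The ratio of PKM2 to LDHA, which make and use the same pyruvate in succession, was 2.08 in the control Ribo-Seq library and 2.73, 2.67, 3.66 and 4.91 at 2, 4, 6 and 19 h. In RNA-Seq the same ratio was 2 in the control and 2.81 at 19 h. The ratio of GAPDH to LDHA in Ribo-Seq was 4.43 in the control and 7.62 at 19 h, and in RNA-Seq 3.65 and 4.58. These ratios are taken within a library and show unequal change only.

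**Figure D3:**
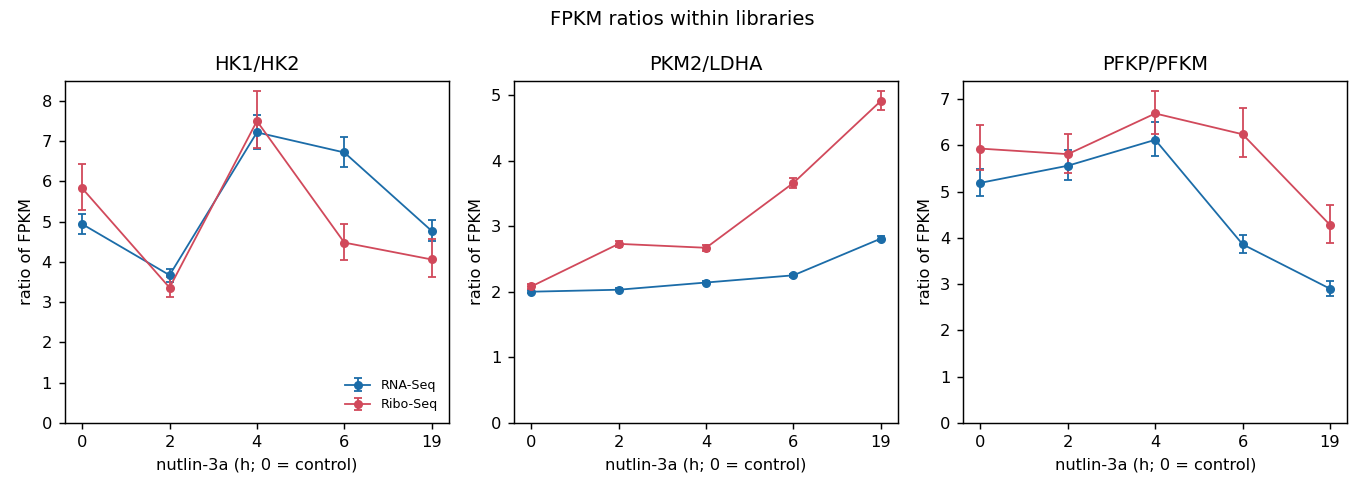
Ratios of FPKM within each library for HK1 to HK2, PKM2 to LDHA and PFKP to PFKM in the control (0 h) and at 2, 4, 6 and 19 h, RNA-Seq in blue and Ribo-Seq in red, with 95% counting intervals as bars. The PKM2 to LDHA ratio in Ribo-Seq was 2.08 in the control and 4.91 at 19 h, and the HK1 to HK2 ratio was lowest at 2 h in both assays.

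HK2 and LDHA, whose ribosome density moved farthest in opposite directions, both carry in their promoters the letters ACGTG, known as the core of the hypoxia response element and, within CACGTG, of the E-box bound by MYC and its relatives. Windows from 250 bases before to 50 after each RefSeq start (GRCh38.p14) were searched for ACGTG on both strands, with overlapping matches merged. Of 35116 promoter windows of human genes, 21.4% held it. All 10 enzymes had windows in the table (PKM2 as PKM), 23 in all because several have more than 1 start, and 10 of these 23 windows, in 7 of the 10 genes, held the letters. The share above is per window. No share of genes was taken, and a gene with more starts had more windows to hold a match. HK2 had 4 matches, ALDOA, PGK1 and LDHA had 3 each, and GPI, PFKP and GAPDH had 1 each. HK1, ENO1 and PKM2 had none. Only 1 of the 2 windows of LDHA held a match. HK2 and LDHA were picked by their changes in these data. A pair of matches each is shown for HK2 (from its second window) and for LDHA (from its first), with the motif in capitals, 5′ to 3′ on the plus strand.
HK2, 194 bases before the start, chr2:74834966-74834991: ttgctgcgccCACGTGggagggagcc
HK2, 149 bases before the start, chr2:74835011-74835036: ccggcgagagCACGTGgagagaatcg
LDHA, 185 bases before the start, chr11:18394368-18394393: actcccagcgCACGTGgagcagtctg
LDHA, 87 bases before the start, chr11:18394466-18394491: gcccgactcaCACGTGggttcccgca
CACGTG was also present once in ALDOA (in its second window, 112 bases before the start) and once in GAPDH (81 bases before the start). No relation between these letters and the changes was tested.

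Taken as a group, the 10 enzymes moved little at 2 to 6 h in RNA and were lower at 19 h. Their median log2 change in RNA was -0.07, -0.04, -0.07 and -0.27 at 2, 4, 6 and 19 h, beside -0.05, -0.07, -0.002 and -0.07 for all tested genes. At 19 h all 10 lay below 0 beyond their counting intervals, from -1.03 (ENO1) to -0.05 (ALDOA). With every change centred on the median of all tested genes 9 of 10 did, ALDOA being at 0.02, and with the length trend removed 8 of 10 did, ALDOA and PKM2 being above 0. In ribosome density the medians were 0.18, 0.04, 0.03 and -0.25, beside 0.02, 0.10, -0.02 and -0.19 for all tested genes, so the late value was close to that of all genes. The median of all tested genes thus moved by over 0.1 in density at 4 h and 19 h, and in TE at 4 h (0.18), and relative to it the members' medians were -0.06, -0.05 and -0.09.

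The members did not move as one. In RNA at 2 h HK2 was at 0.43 and the other 9 lay between -0.11 and 0.003. In density the members ran from -0.18 to 1.01 at 2 h, from -0.32 to 0.30 at 4 h, from -0.70 to 0.29 at 6 h and from -1.17 (LDHA) to 0.27 (HK2) at 19 h. The SD of the density changes of all tested genes was 0.40, 0.44, 0.79 and 0.99 at these times. In density 3 members were above the control at 19 h beyond counting error (HK2, ALDOA and PKM2) and 7 below it. At 6 h HK2, PFKP and ALDOA had the largest TE changes (0.78, 0.45 and 0.49) and LDHA and GAPDH the lowest (-0.66 and -0.37). HK1 (-0.05) and PKM2 (-0.01) did not differ from the control beyond counting error at that time.

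**Figure D4:**
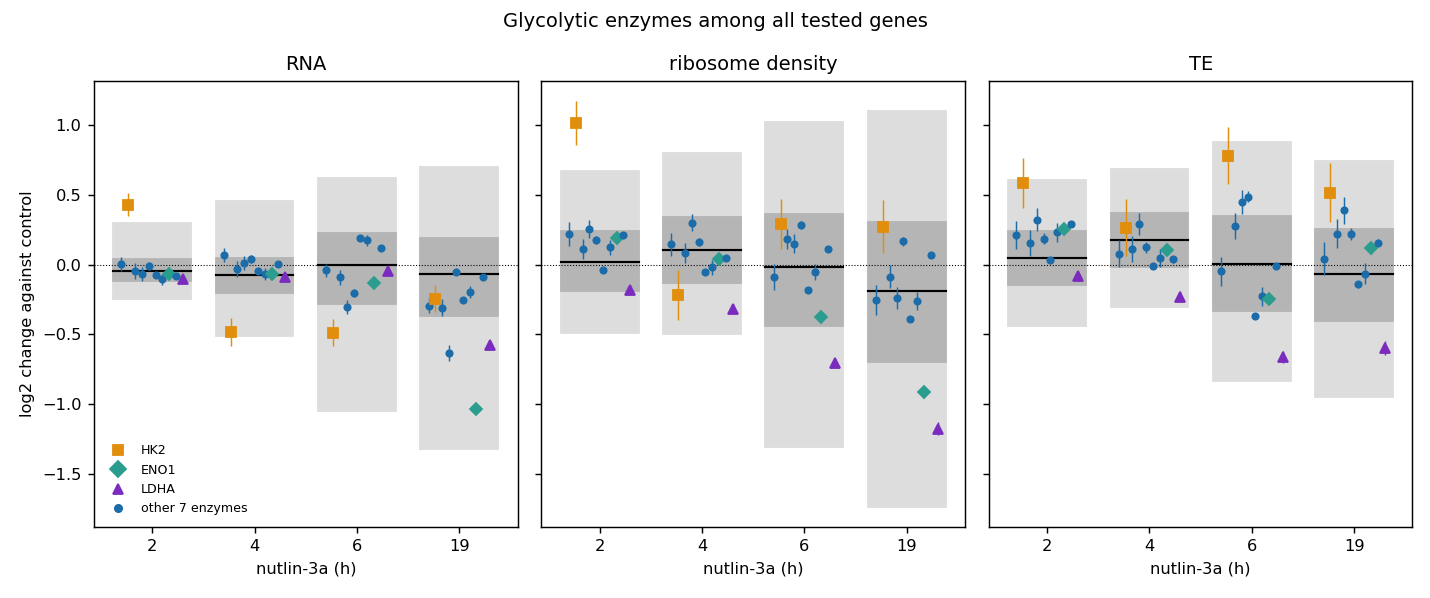
log2 changes of the 10 enzymes (points, with 95% counting intervals) at 2, 4, 6 and 19 h in RNA, ribosome density and TE, over the 7015 tested genes, shown as the middle 50% (dark grey), the middle 90% (light grey) and the median (black line). Only HK2 at 2 h in RNA and ribosome density lies outside the middle 90%; ENO1 and LDHA lie in its lower part at 19 h in RNA and density.

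In level, the TE of the enzymes was above the median of all tested genes for most members. In the control 8 of 10 were above that median of -0.27, and the hexokinases HK1 (-0.67) and HK2 (-0.91) were below it. HK1 and HK2 were also the 2 lowest members in the control, at 2 h and at 4 h. LDHA (-0.20) was also below the median of -0.10 at 4 h. At 6 h LDHA (-0.63), ENO1 (-0.33) and HK1 were below the median of -0.24, and HK2 (-0.13) was above it. Of the members only GPI, PFKP, ALDOA, PGK1, PKM2 and GAPDH were above the median in all 5 pairs of libraries. These levels share the limit of the transcript lengths given above.

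**Figure D5:**
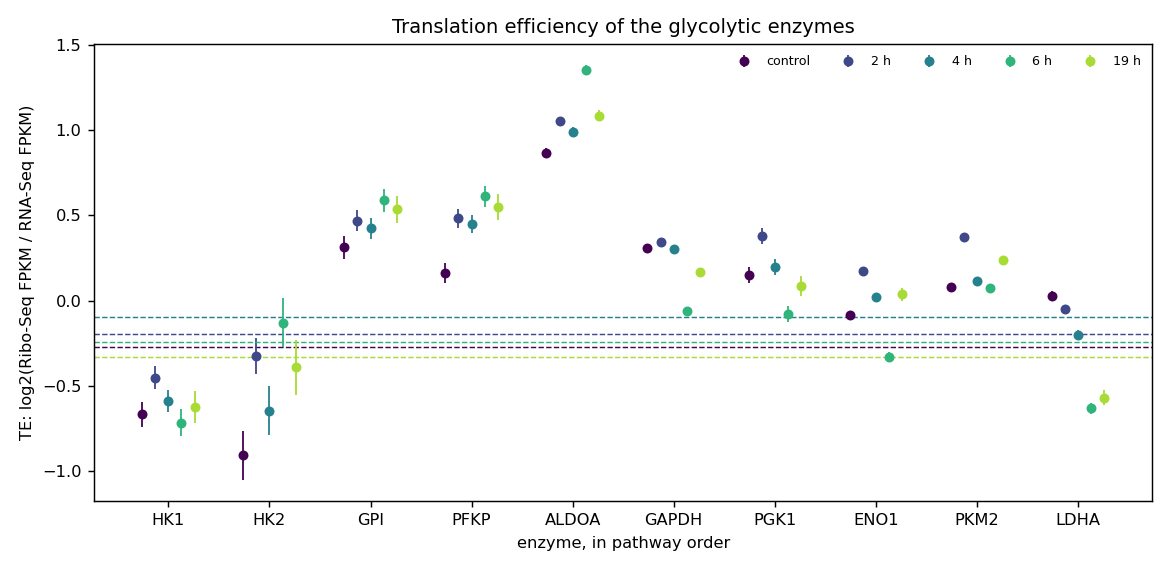
TE, the log2 ratio of Ribo-Seq to RNA-Seq FPKM (vertical axis), of the 10 enzymes in pathway order in the control and at 2, 4, 6 and 19 h, with 95% counting intervals; dashed lines give the median of all tested genes in each pair of libraries. ALDOA is highest in every pair, from 0.87 in the control to 1.35 at 6 h, and LDHA goes from 0.03 in the control to -0.57 at 19 h.

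The tested genes whose profile came nearest to the members' median, by root mean square difference over the 8 changes in RNA and density, were CTNNBL1 (0.059), FARSA (0.061), CTNNA1 (0.073), ACAD9 (0.074) and CNDP2 (0.078). Of the members HK1 was as near (0.073), and LDHA (0.47), HK2 (0.46) and ENO1 (0.39) were the farthest.

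Of 18 other enzymes and isozymes of the pathway that were listed, 8 were in both tables and 5 were tested, and none of the 5 was called in any readout at any time. TPI1, triosephosphate isomerase, was at 349 FPKM in the control RNA and 318, 324, 326 and 221 FPKM at 2, 4, 6 and 19 h, a log2 change at 19 h of -0.66 (SE 0.019). PGAM1, phosphoglycerate mutase, was at 119 FPKM in the control and 84.6 FPKM at 19 h (-0.50, SE 0.030); its reads can be shared with the near-identical PGAM4. ENO2, the neuronal enolase, was at 11.4 FPKM in the control and 7.06 FPKM at 19 h (-0.70, SE 0.082). The median of the 5 genes in RNA at 19 h was -0.50, beside -0.07 for all tested genes, and PFKM (0.21) was the one above the control.

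LDHB, the other main lactate dehydrogenase subunit, had a course much like that of LDHA in Ribo-Seq. Ribosome density of LDHB was 270 FPKM in the control and 217, 231, 149 and 97.2 FPKM at 2, 4, 6 and 19 h. Its log2 change at 19 h was -1.47 (SE 0.047) in density, -0.46 (SE 0.023) in RNA and -1.02 (SE 0.053) in TE, none called. The ratio of LDHA to LDHB in Ribo-Seq stayed between 2.3 and 3.01, and in RNA-Seq between 2.51 and 2.77.

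Among carriers of glucose and lactate, 8 of 11 listed genes were tested, and at 2 h 1 was called higher in RNA and 1 in density, beside 4.06% and 4.53% of all tested genes. They were named after their values were seen: SLC2A3 (GLUT3) rose in RNA by 0.94 (SE 0.066), and SLC2A1 (GLUT1) rose in density by 0.86 (SE 0.042). None was called later, or in TE. Of the regulators of glycolytic flux 5 of 11 were tested and 3 were called higher in RNA at 2 h, beside the same 4.06% of all tested genes: C12orf5, PFKFB3 and PDP1, the last 2 also named after their values were seen. PFKFB3 makes the activator of phosphofructokinase and was at 13.1 FPKM in the control RNA, 24.8 FPKM at 2 h and 10.6 FPKM at 19 h. It rose at 2 h by 0.92 (SE 0.068) in RNA and 0.92 (SE 0.11) in density. HK2, SLC2A3, SLC2A1, PFKFB3 and PDP1 each had their highest value of the 5 RNA libraries at 2 h. All but HK2 were named for a call at that time, so a peak there follows in part from the choice. The other tested carriers were highest later, SLC16A1, SLC16A3 and SLC2A6 at 4 h, SLC2A10 at 6 h, and BSG and SLC16A7 at 19 h. Of the regulators, C12orf5 was highest at 6 h and PDK2 and PDP2 at 19 h.

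C12orf5 (TIGAR), which degrades the product of PFKFB3, was the one regulator called in RNA at all 4 times. Its RNA was 10.4 FPKM in the control and 15.1, 51.2, 52.1 and 48.4 FPKM at 2, 4, 6 and 19 h. Its log2 change in RNA was 2.21 (SE 0.086) at 19 h, and that in density 1.59 (SE 0.12). PFKP, the phosphofructokinase among the members, was at -0.63 in RNA at that time.

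Of the genes that bring pyruvate into mitochondria and oxidise it, 7 of 8 were tested, and none was called in RNA or density. BRP44 (MPC2), a subunit of the mitochondrial pyruvate carrier, fell in TE at 2, 4 and 6 h, with log2 changes of -0.47, -0.32 and -1.25, and stood at -0.67 at 19 h. Of all tested genes 2.57%, 3.29% and 3.16% were called lower in TE at 2, 4 and 6 h. None of the 6 tested genes of the pentose phosphate pathway was called in any readout. Of the 10 tested genes of glycogen and sugar phosphate branches, GFPT2 was called higher in RNA at 4 h, as were 4.22% of all tested genes, and UGP2 lower in TE at 19 h, again as were 4.22%. GFPT2 and UGP2 were named after their values were seen.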

How the data were processed

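The authors deposited FPKM values for 1 library per group. Per the study's methods and the labels, 50-nt reads were aligned with Bowtie to protein-coding transcripts of Ensembl release 65 (hg19 in the labels), with 1 isoform per gene and unique hits only. A table naming just Ribo-Seq was taken to be that assay, and the other, which names both, to be RNA-Seq. The methods state that Ribo-Seq reads were counted over coding sequence, while the column names say total. Groups came from the sample titles.

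The steps between FPKM values gave whole reads and transcript lengths for 11202 of 11258 transcripts, with 99.5% of values within 0.1 read of a whole number. A length was accepted only where all values of a transcript came out as near-whole reads, so that last share follows largely from the choice. For 5152 transcripts each assay alone also gave a length, and the 2 lengths were the same for 90.3% of them. A change was called beyond 1.75 local SDs from the local median of the 501 tested genes nearest in level; the narrower windows held 201. Changes, local windows and calls were computed with Python 3.11.15, numpy 2.4.6 and pandas 2.3.3, and length trends with statsmodels 0.14.6 (lowess, fraction 0.3). The calls and the recovery of reads and lengths were tested on simulated data, with the library totals taken as known. The spread between simulated libraries was set and not taken from these data, so the test gives no error rate for the calls here. Alternatives were another floor, filter, baseline, scaling, cut-off or window. The members and the gene lists were chosen with earlier results of these data known. All 10 members are described, and of the other lists the genes called at 2 or more times in RNA or TE, at most 4 per list, with every tested gene of the other glycolytic enzymes. Further genes of these lists, GFPT2, UGP2 and ACTB among them, do not meet this rule and were named after their values were seen. Promoter sequences are from RefSeq (GRCh38.p14).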

Additional observations from a re-analysis of the deposited data

Results flagged for a closer look

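HK2 was singled out because its RNA lay above the control at one time and below it at others, each time by over 0.25 on the log2 scale and beyond the 95% counting interval. Its log2 changes were 0.43 (SE 0.043), -0.48 (SE 0.051) and -0.49 (SE 0.050) at 2, 4 and 6 h, in which SE is the counting error. Of these only the value at 2 h was called. Whether the times differ was not tested, as each had 1 library, and the 3 values share the control library.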

How the results depend on the processing

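With 1 library per group, the counts of called enzymes are descriptions of these libraries, and neither the spread between cultures nor a batch of library preparation can be assessed. The study reported that samples separated by sequencing run. Its list of libraries has nutlin-3a at 6 h and 19 h beside a control, but not 2 h or 4 h. In that list the coding share of Ribo-Seq reads differed among these libraries. Fewer of their reads lay in the main reading frame than in the study's other Ribo-Seq libraries. Low depth limits HK2 most. The 3 calls (HK2 in RNA and density at 2 h, ENO1 in RNA at 19 h) were unaltered with a pseudocount of 1 FPKM, a floor of 5 FPKM, no filter, median centring, the length trend removed, and windows without ribosomal protein genes. When genes had to average 20 FPKM or more in each assay, HK2 was not tested and the counts at 2 h were 0 in RNA and 0 in density. At 2.5 local SDs the counts in RNA were 0 at 2 h and 0 at 19 h. At a fixed 1.5-fold, 0 members passed in RNA at 2 h and 2 in RNA at 19 h (ENO1 and PFKP, lower). In density 1 passed at 2 h (HK2, higher), 1 at 6 h (LDHA, lower) and 2 at 19 h (LDHA and ENO1, lower). In TE 2 passed at 6 h (HK2 higher, LDHA lower) and 1 at 19 h (LDHA, lower). Against the 2 h library, HK2 was lower at 4 h in RNA and in density, 1 call each. With the narrower windows, chosen after seeing the data, 1 call was made in TE at 2 h (HK2, higher). No call changed direction under any of these settings. The share of the summed FPKM held by the members in RNA at 19 h was 1.4% over tested genes alone and 1.36% without the 2 most abundant transcripts. In Ribo-Seq the share over tested genes alone was 1.6% in the control and 1.48% at 19 h. Without the 2 most abundant transcripts of that assay it was 1.46% and 1.43%. No paired analysis was possible because each group had a single library of each assay.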

Other observations

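In the serine branch, which leaves glycolysis at 3-phosphoglycerate, 3 of 5 tested genes were called higher in RNA at 4 h, beside 4.22% of all tested genes, and none was called in RNA at another time. They were named after their values were seen. PSAT1 RNA was 34.6 FPKM in the control and 35.8, 85.3, 41.3 and 31.3 FPKM at 2, 4, 6 and 19 h, PHGDH went from 70.2 FPKM to 100.4 FPKM at 4 h, and PSPH from 11.5 to 17.3 FPKM. In density PSAT1 was also called higher at 4 h, and in TE it was called lower at that time.

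Of the hypoxia-inducible genes outside glycolysis 10 of 15 were tested, and BHLHE40 and VEGFA were called higher in RNA at 2 and 4 h, beside 4.06% and 4.22% of all tested genes. BHLHE40, a repressor of transcription, was at 6.24 FPKM in the control RNA and 51.1, 24.0, 15.0 and 23.1 FPKM at 2, 4, 6 and 19 h. VEGFA was at 4.98 FPKM in the control, 9.56 and 9.40 FPKM at 2 and 4 h, and 4.17 and 4.06 FPKM at 6 and 19 h. The median of the 10 genes in RNA was 0.03 at 2 h and 0.22 at 19 h, when that of the glycolytic enzymes was -0.27. At 19 h BHLHE40 and P4HA2 were called higher in RNA, as were 123 of all 7015 tested genes, and P4HA2 is named after its values were seen.

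Among 12 customary reference genes, all tested, HPRT1 was called lower in RNA at 19 h and ACTB at 6 h, beside 4.65% and 4.9% of all tested genes. HPRT1 RNA was 31.9 FPKM in the control and 12.5 FPKM at 19 h, a log2 change of -1.35 (SE 0.081). ACTB RNA was 4061 FPKM in the control and 2700 FPKM at 6 h, and this gene was named after its values were seen. The change of GAPDH RNA at 19 h, -0.25, was smaller in size than the median of these 12 genes, -0.42.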
